A study of Mus musculus with 12 samples.

Results

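Expression was compared between blood neutrophils of wild-type (WT) mice given lipopolysaccharide (LPS) and of WT mice given saline. The comparison was defined by the sample labels alone, and every row of the deposited table entered it: 6 of the 12 libraries in the series and all 9374 genes. According to the labels, the mice were female, LPS was given at 0.5 mg/kg, and neutrophils were isolated from blood 16 hours after LPS or saline. There were 3 libraries labelled WT-Saline and 3 labelled WT-LPS. The other 6 libraries, 3 of saline and 3 of LPS at the same dose and time, came from mice of the line Hmgb1ΔMye (labelled KO), a name used for deletion of Hmgb1 in myeloid cells; the promoter that drives that deletion is not given in the sources used here. All 4 groups shared sex, tissue, cell type and isolation after treatment of the animal. The KO-labelled libraries are used here to share the estimate of the spread, and once to set the genes called in WT beside a contrast that shares no library with theirs. Whether the libraries of 1 group stem from different mice is not stated in the labels. The p-values then cover the spread of these samples alone, and that spread may be technical.

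LPS is a lipid of the outer membrane of Gram-negative bacteria. It is carried by LBP and CD14 to Toll-like receptor 4 (TLR4) with MD-2, and the receptor signals through MyD88 to NF-kB and AP-1 and through TRIF to the interferon pathway. Neutrophils carry preformed proteins in azurophil, specific and gelatinase granules, which are made in sequence as the cells mature in the bone marrow. Given to an animal, LPS also acts on marrow, endothelium and other blood cells, and it changes which neutrophils circulate.

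The libraries were shallow. The table held 405517, 458787 and 526757 reads in the 3 WT-Saline libraries and 426075, 477467 and 524379 in the 3 WT-LPS libraries, and the median gene had 11.33 reads per library over all 12. Levels are given as CPM, read counts divided by the library's scaled total, which do not account for gene length. Changes are fitted log2 differences, LPS minus saline, ± their standard error, and ± after a mean level is the SD. A gene with no read in a library could have reached up to 5.58 to 7.26 CPM there, taking 3 reads as the limit that a count of 0 allows; such limits and the intervals below cover counting error only. The library kit marks strand, and the strand setting used in counting is not given in the sources used here. Among 217 long non-coding RNAs with exons opposite those of a protein-coding gene in the table, 166 (76.5%) had more reads than that gene in the WT libraries. Exons of 3419 genes overlapped a gene on the opposite strand, and whether their values, or those of any gene, carry reads of the other strand was not tested. Genes without such an overlap are therefore named first, and the partner or the overlap is stated for most genes that have one. A lack of annotated overlap does not show that a gene's reads come from its own strand. Exon bases are also shared on the same strand by some genes named below: Clec9a with Clec1b, Tgtp1 with Gm12185, Gbp7 with Gm43802, Il2rg with Gm20489, Irf9 with Rnf31, Prnp with Prn, Fpr2 with Fpr3, and Arrb2 and Irak1 with micro-RNA precursors. Several genes below have close paralogs, among them members of the Ifit, Oas1, Ifi200, Gbp, Tgtp, H2, Fpr, Naip and beta-defensin families. How reads shared by copies were counted is not given in the sources used here, so their split between copies is uncertain.

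The labelled cell type was checked against its markers. All 19 mature neutrophil markers on the list were in the table, 6 of them rising and 5 falling, and their summed level was 17635 to 22682 CPM in saline and 20584 to 23473 CPM in LPS, ranges that overlap. S100a9, a subunit of calprotectin, had 3643, 3082 and 5137 CPM in saline and 5760.0, 6557 and 5766 CPM in LPS. Csf3r, the receptor for G-CSF, had 5456, 4923 and 5697 CPM in saline and 1382, 2134 and 1799 CPM in LPS. Other cell types left smaller sums. Of 20 monocyte and macrophage markers 10 were measured and summed to 510.3 to 658 CPM in saline and 846 to 1126 CPM in LPS. Among them 2 rose, Ly6c2 and Nr4a1, and 2 fell, Apoe and Csf1r, the last with an opposite-strand overlap. Of 17 dendritic cell markers 9 were measured and 2 fell, with 276 to 414 CPM in saline and 128 to 159 CPM in LPS; in LPS, Clec9a and H2-Aa had no reads. Of 18 platelet markers 6 were measured and 3 fell, with 685 to 1052 CPM in saline and 429 to 572 CPM in LPS, and Clec1b had no reads in LPS. Of 26 T and NK cell markers 7 were measured and 1 fell, with 215 to 249 CPM in saline and 135 to 275 CPM in LPS. Of 18 B cell markers 3 were measured, with 117 to 154 CPM in saline and 185 to 262 CPM in LPS, and Cd79a, a chain of the B cell receptor, rose by 2.61 ± 0.55 log2 units (adjusted p = 0.00154). Of 20 erythroid markers 4 were measured and none passed the test, with 486 to 598 CPM in saline and 606 to 759 CPM in LPS. The sum of immature neutrophil markers differed most: 12 of 31 were measured, and they summed to 2154 to 2966 CPM in saline and 11734 to 16917 CPM in LPS, without overlap. Most of the saline sum was Mki67, which did not pass the test. Of the 12, 5 rose, Chil3, Camp, Ngp, Ltf and Lcn2, which are described with the specific granule genes below, and 7 did not pass. Of the eosinophil, basophil and mast cell markers 2 were measured, with 946 to 1074 CPM in saline and 543 to 759 CPM in LPS, also without overlap; nearly all of that sum was Hdc, histidine decarboxylase, which makes histamine, and neither it, at -0.58 ± 0.22 log2 units (adjusted p = 0.0908), nor Siglecf passed the test. In bulk samples fewer cells of a type and less RNA per cell cannot be told apart, and a rise or fall below covers both. Risen mature neutrophil markers numbered 3 without WT-Saline 2 and 2 without the trend, and fallen ones 1 without the trend. Risen monocyte and macrophage markers numbered 1 without the trend, and fallen ones 1 without WT-LPS 1 or 2 or WT-Saline 1 or 2 and 1 without the trend.

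The levels of 1095 genes differed between WT-LPS and WT-Saline neutrophils: 630 rose and 465 fell by limma at a Benjamini-Hochberg adjusted p under 0.05. That was 11.7% of the 9374 genes tested, 6.72% rising and 4.96% falling. A change of at least 4-fold was fitted for 290 of the risen and 201 of the fallen genes, and one of at least 16-fold for 72 and 23. These fitted sizes depend on the 0.5 reads added to every count for the 54 risen and 23 fallen genes that had no read in the lower group; for those named below a lower bound is given, taking 3 reads in each library of the empty group. The risen genes together held 109129 CPM in saline and 266625 CPM in LPS, and the fallen genes 203486 CPM in saline and 75939 CPM in LPS. The 50 most abundant genes of saline and of LPS had 31 genes in common. The WT-Saline and WT-LPS values did not overlap for 624 of the risen and 456 of the fallen genes, as against 30.6% of all genes. Nearly every called gene thus had separate groups, and separate groups add little to a call in the genes named below. Of the 9374 genes tested 8691 were protein-coding and 537 long non-coding RNAs; 578 rises and 417 falls were of the first kind and 49 rises and 41 falls of the second. The median log2 change over all genes was 0.065, and 0.0353 with the 304 genes lacking reads in a group at their bound, or at 0 where there is none.

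Which genes could be called followed their read depth. Among the 1875 genes with the most reads 29.97% were called, with a median size of 1.31 log2 units, and among the 1875 with the fewest reads 2.29% were called, none below 3.06 log2 units. The count of rises was 400 without WT-LPS 1 and 408 without WT-LPS 3, and the count of falls was 308 without WT-Saline 2. Of the 1095 calls, 519 were made again in every one of the 6 fits that left out a WT library, and limma without a mean-variance trend called 363 genes. For the gene lists below, a count of 2 or more is also given without each WT library whose absence moved it by over 1.5 times, and without the trend where that did so; a count not mentioned again moved less. A count of 1 is a single gene. List counts stand beside 6.72% of all genes rising and 4.96% falling. Members and lists were chosen with earlier results of these data known, so the shares are described and not tested.

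**Figure D1:**
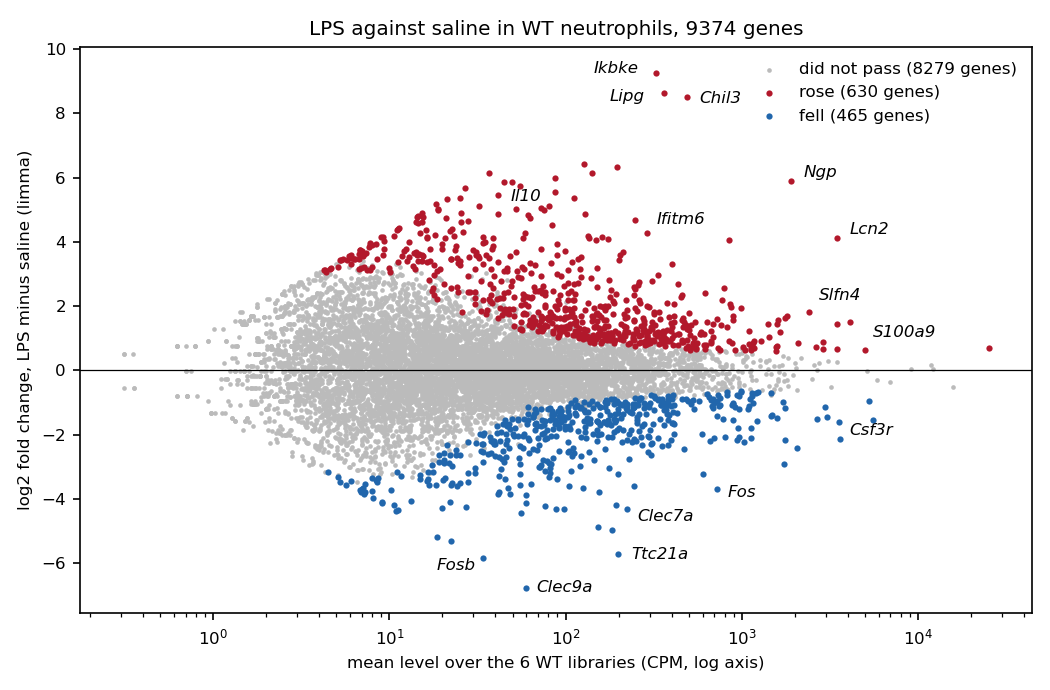
Each point is 1 of the 9374 genes, with its mean level over the 6 WT libraries in CPM on a log axis and its fitted log2 fold change, LPS minus saline; red points rose (630), blue points fell (465) and grey points did not pass the test. The called genes reach smaller changes as the level increases, from more than 3 log2 units at the lowest levels to under 1 at the highest.

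The genes that rose most, among those with no opposite-strand overlap, were mostly near or at 0 reads in saline. Lipg, which encodes endothelial lipase (GRCm38, chromosome 18, 74939322 to 74961263), had 4.84, 0 and 0 CPM in saline and 730.1, 769.8 and 665 CPM in LPS. Every LPS library was far above every saline library, and the ratio of pooled reads was 512 (95% counting interval 141 to 4229.5). Chil3, a chitinase-like protein of neutrophils and macrophages, had 0, 14.8 and 0 CPM in saline and 844, 858 and 1219 CPM in LPS, a rise of 8.52 ± 1.05 log2 units (adjusted p = 3.30e-06). Id2, an inhibitor of helix-loop-helix transcription factors, had 0, 2.11 and 5.59 CPM in saline and 320.0, 198 and 239.7 CPM in LPS and rose by 6.41 ± 0.79 log2 units (adjusted p = 3.11e-06). For each of these genes the lowest LPS value was over 10 times the highest saline value. Ngp, neutrophilic granule protein, had 84.7, 44.4 and 54.0 CPM in saline and 4985, 2252 and 3964 CPM in LPS. Spread within LPS was wide for it, yet its lowest LPS library was far above saline, and the rise was 5.89 ± 0.55 log2 units (adjusted p = 1.84e-07).

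Other genes of this group rose from 0 to 5 reads in all 3 saline libraries together. Lgals3bp, a secreted galectin-binding protein, had no read in saline and 106 reads in LPS, at least 11.5-fold higher. Ube2l6, the conjugating enzyme for ISG15, had 0 and 77 reads and was at least 8.38-fold higher, and the prion protein gene Prnp, with 0 and 62 reads, at least 6.62-fold. Gpr27, an orphan receptor, had 1 and 128 reads, a ratio of 127 (95% counting interval 22.4 to 5056). The serotonin receptor gene Htr2a had 1 and 139 reads, a ratio of 138 (95% counting interval 24.4 to 5487). Dock10, a guanine nucleotide exchange factor, had 2 and 114 reads, a ratio of 56.6 (95% counting interval 15.3 to 473). Klhl6, an adaptor of a ubiquitin ligase, had 3 and 155 reads, a ratio of 51.3 (95% counting interval 17.2 to 251). Cd38, an enzyme that breaks down NAD, had 7.26, 4.23 and 0 CPM in saline and 114, 164 and 230.4 CPM in LPS and rose by 5.56 ± 1.29 log2 units (adjusted p = 0.0042). The groups did not overlap for any of these genes, which the rule for naming them required. Cd38 was not called by limma without a mean-variance trend (adjusted p = 0.101).

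The genes that fell most included several surface receptors and a transcription factor. Clec9a, a C-type lectin known from dendritic cells that bind dead cells (GRCm38, chromosome 6, 129408862 to 129424763), had 67.8, 146 and 143 CPM in saline and 0, 0 and 0 CPM in LPS, at least 18.8-fold lower. Its exons share 184 bases with those of its neighbour Clec1b on the same strand, and how reads there were assigned was not tested. Fosb, a subunit of AP-1, had 119, 52.8 and 31.7 CPM in saline and 0, 0 and 0 CPM in LPS, at least 10.7-fold lower. Ttc21a had 411, 404 and 339 CPM in saline and 2.37, 38.0 and 1.86 CPM in LPS and fell by 5.72 ± 0.69 log2 units (adjusted p = 2.57e-06); 1 LPS library was above the other two and still far below saline. Ctc1, a component of the telomere-capping CST complex, had 244, 495 and 315 CPM in saline and 16.6, 2.11 and 22.3 CPM in LPS. St8sia4, which adds polysialic acid to surface proteins, had 208, 427 and 246 CPM in saline and 11.9, 23.2 and 1.86 CPM in LPS. For both genes all 3 LPS libraries were below all 3 saline libraries. Clec7a, known as dectin-1, the receptor for fungal beta-glucan, had 506, 372 and 400.4 CPM in saline and 19.0, 33.7 and 13.01 CPM in LPS and changed by -4.31 ± 0.72 log2 units (adjusted p = 1.36e-04). Cd101, an inhibitory receptor that marks mature neutrophils in the mouse, had 404, 345 and 339 CPM in saline and 9.48, 42.2 and 16.7 CPM in LPS and changed by -4.17 ± 0.59 log2 units (adjusted p = 1.86e-05). Itgax, the integrin CD11c, had 126, 167 and 123 CPM in saline and 23.7, 16.9 and 0 CPM in LPS. Ptgfrn, with 65 reads in saline and 0 in LPS, was at least 7.01-fold lower. Clec1a, another C-type lectin, had 74 reads in saline against 3 in LPS, and the beta-defensin gene Defb39 had 160 and 10. In each gene of this group all LPS values were below all saline values, which the rule for naming them required. Clec7a, Itgax and Clec1a were not called by limma without a mean-variance trend (adjusted p 0.0599 to 0.0731).

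By absolute level, the largest rises among genes without an opposite-strand overlap included granule and calprotectin genes. Lcn2, the siderophore-binding protein lipocalin-2, had 324, 315 and 519.6 CPM in saline and 7509, 6057 and 6289 CPM in LPS, which made it the most increased of them in CPM. Slfn4, a schlafen family gene induced by interferon, had 1019, 985 and 1158 CPM in saline and 3733, 4564 and 2981 CPM in LPS. Mmp9, gelatinase B, had 2442, 1626 and 2133 CPM in saline and 3461, 3570.4 and 4192 CPM in LPS and rose by 0.87 ± 0.23 log2 units (adjusted p = 0.00982). S100a9, with the levels given above, rose by 0.64 ± 0.20 log2 units (adjusted p = 0.0379). Csf3r had the largest fall of these, -1.62 ± 0.30 log2 units (adjusted p = 4.71e-04), and Prr33 had 4272, 4982 and 4241 CPM in saline and 1579, 1641 and 1700.4 CPM in LPS. The groups were separate for these 6 genes. Mmp9 lost its call without WT-LPS 3 or WT-Saline 2 (adjusted p 0.0656 to 0.0838) and S100a9 without WT-LPS 1, WT-LPS 2, WT-LPS 3, WT-Saline 1 or WT-Saline 2 (adjusted p 0.0871 to 0.208). Mmp9, S100a9, Csf3r and Prr33 were not called by limma without a mean-variance trend (adjusted p 0.0782 to 0.226).

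The other large changes in CPM were of genes whose exons overlap a gene on the opposite strand, and where the partner was measured it held fewer reads than the listed gene. Ddx39a had 20219, 17728 and 19594 CPM in saline and 31588, 33895 and 28886 CPM in LPS, and its partner Adgre5, the adhesion receptor CD97, went from 1179.6 ± 139.5 to 1960.3 ± 117 CPM (SD, n = 3). Bysl rose beside Ccnd3, which encodes cyclin D3 and went from 201 ± 34.0 to 451 ± 76.4 CPM, and 0610039K10Rik beside Serinc3, at 264 ± 60.9 to 669.8 ± 157 CPM. Gm16712 rose beside Ebi3, a subunit shared by IL-27 and IL-35, at 41.9 ± 29.6 to 142 ± 16.0 CPM, and A930037H05Rik beside Rnf213, at 368 ± 31.1 to 1013 ± 186 CPM. Epha1 had 8159.7, 8584 and 8182 CPM in saline and 2401, 3429 and 2897 CPM in LPS, beside Zyx, the focal adhesion protein zyxin, at 1664 ± 151 to 1184 ± 68.9 CPM. Krr1 had 5427, 7043 and 5368 CPM in saline and 1304, 1483 and 1228 CPM in LPS, beside Glipr1 at 267 ± 74.6 to 153 ± 45.0 CPM. Il1bos, an antisense RNA of the interleukin-1 beta gene, had 3425, 4101 and 2572 CPM in saline and 1403, 477 and 353 CPM in LPS, and Il1b itself went from 1681 ± 147 to 374 ± 120.2 CPM. Gm10684 had 3219, 3420.1 and 2509 CPM in saline and 398, 525 and 312 CPM in LPS, and its partner Jaml, a junctional adhesion molecule of neutrophils, went from 214 ± 32.9 to 27.1 ± 7.60 CPM. A730081D07Rik fell beside Gcnt2, Pigb beside Ccpg1, 4933416M07Rik beside Rab11fip1 and Csnk1d beside Gm28192. The groups did not overlap for any of these listed genes. Over all called genes with a measured partner, 272 in number, the partner was called the same way for 107, the other way for 2 and not called for 163. Ddx39a lost its call without each of the 6 WT libraries in turn (adjusted p 0.0754 to 0.147), Il1bos without WT-LPS 3 (adjusted p = 0.0529) and A730081D07Rik without WT-LPS 1 or WT-LPS 3 (adjusted p 0.0536 to 0.0848). Ddx39a, 0610039K10Rik, Epha1, Il1bos, A730081D07Rik, Pigb and 4933416M07Rik were not called by limma without a mean-variance trend (adjusted p 0.0651 to 0.184).

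**Figure D2:**
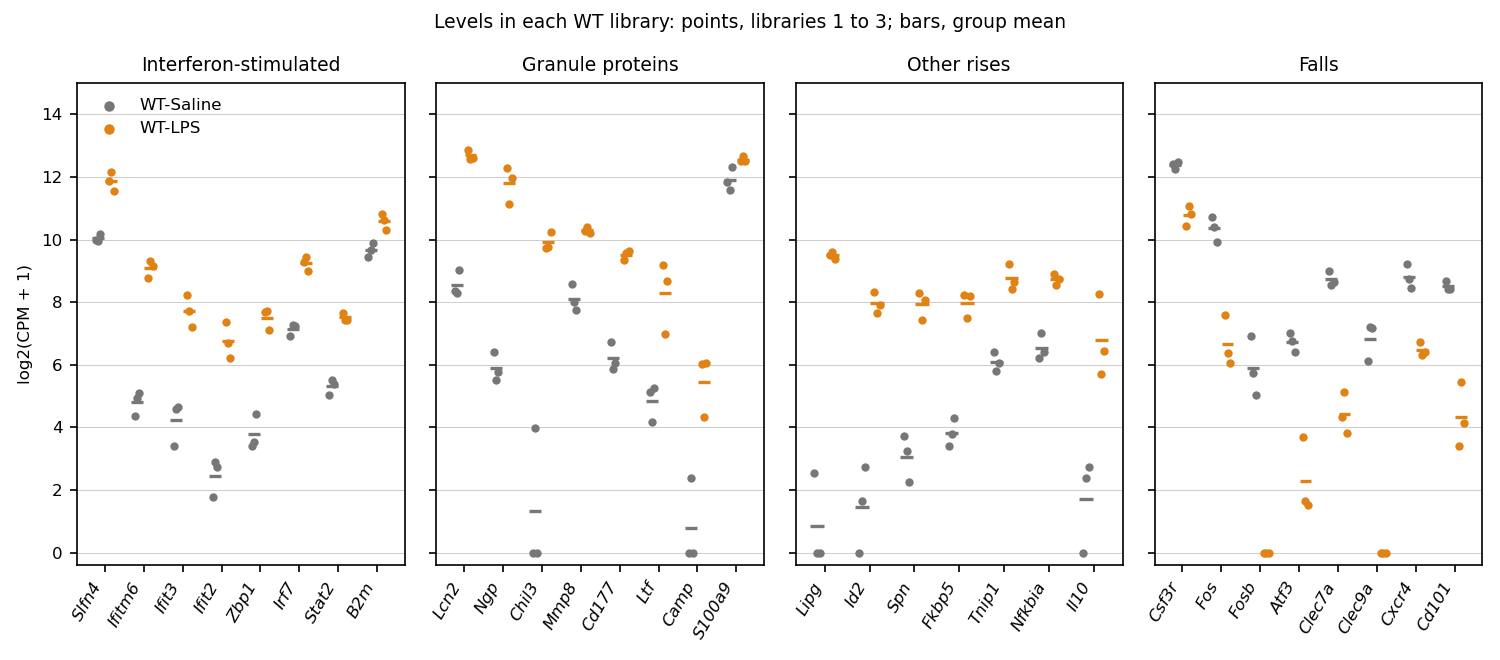
Levels of 31 genes as log2(CPM + 1) in each of the 3 WT-Saline libraries (grey) and the 3 WT-LPS libraries (orange), with a bar at each group mean; a value of 0 is a library without a read. The groups do not overlap for any of the 31 genes, as for nearly all called genes, and several rises start from libraries without reads.

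Many interferon-stimulated genes rose, and no antiviral effector on the list fell. These genes are switched on by type I and III interferons through the factor ISGF3 and encode proteins that block viral RNA, translation and budding. Of 40 IFIT and other antiviral effector genes measured, 19 rose, 0 fell and 21 were not called, with a median log2 change of 1.25 (1.22 with genes lacking reads in a group at their bound) beside 0.065 over all genes. Ifitm6, a membrane protein of the interferon-induced IFITM family, had 19.4, 29.6 and 33.5 CPM in saline and 439, 641 and 569 CPM in LPS, a rise of 4.28 ± 0.45 log2 units (adjusted p = 4.15e-07). Ifit2, which binds viral RNA, had 2.42, 6.34 and 5.59 CPM in saline and 164, 103 and 72.5 CPM in LPS and rose by 4.27 ± 0.76 log2 units (adjusted p = 2.60e-04). Ifit3, its partner in the same complex, had 9.68, 23.3 and 24.2 CPM in saline and 299, 209 and 145 CPM in LPS and rose by 3.48 ± 0.44 log2 units (adjusted p = 4.93e-06). Oas1g, a synthetase that activates the antiviral RNase L, had 0 reads in saline against 31 in LPS, at least 3.44-fold higher. The lowest LPS library was above the highest saline library for all 4 genes. Risen antiviral effectors numbered 11 without the trend, and fallen ones 1 without WT-Saline 1.

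Sensors of foreign nucleic acid, many of them interferon-stimulated themselves, moved the same way. Of 24 measured, 12 rose, 0 fell and 12 were not called, with a median log2 change of 1.79 (1.66 with genes lacking reads in a group at their bound). Zbp1, a sensor of Z-form nucleic acid that can trigger cell death, had 9.68, 10.6 and 20.5 CPM in saline and 204, 211 and 138 CPM in LPS and rose by 3.71 ± 0.51 log2 units (adjusted p = 1.39e-05). Ifi208, a member of the Ifi200 family of DNA-binding proteins, had 0 and 39 reads and was at least 4.45-fold higher, and Ifi211 of the same family had 0 and 23 reads, at least 2.43-fold. Ifi209 had 4 reads in saline against 60 in LPS. All LPS libraries were above all saline libraries for these 4 sensors. Ifi211 lost its call without WT-LPS 3 (adjusted p = 0.0632) and Ifi209 without WT-LPS 1, WT-Saline 2 or WT-Saline 3 (adjusted p 0.0547 to 0.056). Risen sensors numbered 7 without WT-Saline 2 and 7 without the trend.

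Promoters are shown for 3 of these genes because the interferon-stimulated response element, the sequence ISGF3 binds, lies close to their start. The motif searched was GAAANNGAA on either strand, in the RefSeq promoter table (build GRCm38.p6), from 250 bases before the start of each gene to 50 after it; 7484 of the 9374 genes had an entry. It was held by 18 of 33 (54.5%) antiviral effector genes with an entry and by 9 of 16 (56.2%) sensors. Among all risen genes it was held by 71 of 507 (14%), among all fallen genes by 37 of 359 (10.3%), and among all genes tested by 669 of 7484 (8.9%). The 250 bases before the start follow, 5′ to 3′ in the direction of the gene, with the letters of each match in capitals; overlapping matches run together.
Ifit3: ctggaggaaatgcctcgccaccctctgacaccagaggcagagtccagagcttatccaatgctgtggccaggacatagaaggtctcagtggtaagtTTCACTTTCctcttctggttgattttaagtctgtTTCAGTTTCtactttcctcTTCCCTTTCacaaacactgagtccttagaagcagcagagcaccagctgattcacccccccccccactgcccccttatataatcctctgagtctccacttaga
Oas1g: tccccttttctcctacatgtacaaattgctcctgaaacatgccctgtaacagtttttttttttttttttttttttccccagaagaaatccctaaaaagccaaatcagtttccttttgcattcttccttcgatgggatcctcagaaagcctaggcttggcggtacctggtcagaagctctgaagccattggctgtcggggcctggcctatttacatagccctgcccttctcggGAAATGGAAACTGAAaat
Ifi208: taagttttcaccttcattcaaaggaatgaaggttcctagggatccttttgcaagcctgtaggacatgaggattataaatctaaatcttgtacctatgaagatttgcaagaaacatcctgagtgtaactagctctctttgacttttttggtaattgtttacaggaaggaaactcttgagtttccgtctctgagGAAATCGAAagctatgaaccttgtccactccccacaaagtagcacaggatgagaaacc

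The Ifit3 stretch is chr19:34583279-34583528, plus strand, with matches at 3 positions, the first starting 155 and the last 102 bases before the start. That of Oas1g is chr5:120887614-120887863, minus strand, with 2 overlapping matches within 18 bases of the start, and that of Ifi208 is chr1:173673415-173673664, plus strand, with 1 match, 58 bases before it. A match describes these letters and does not show that a factor was bound.

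Genes of the interferon signal itself and of antigen presentation followed in part. Of 14 STAT and IRF factors, 3 rose, 1 fell and 10 were not called. Stat2 had 31.5, 44.4 and 41.0 CPM in saline and 201, 173 and 173 CPM in LPS and rose by 2.21 ± 0.37 log2 units (adjusted p = 1.45e-04). Irf7, the factor that amplifies interferon production, had 119, 152 and 151 CPM in saline and 619, 700.2 and 509 CPM in LPS, with an overlap with Phrf1 on the other strand, and rose by 2.10 ± 0.25 log2 units (adjusted p = 2.57e-06). Irf9 had 72.6, 84.6 and 78.2 CPM in saline and 166, 173 and 139 CPM in LPS, a rise of 1.01 ± 0.29 log2 units (adjusted p = 0.0217), and Stat5a, beside Stat3 on the opposite strand, changed by -1.04 ± 0.26 log2 units (adjusted p = 0.00658). Of 11 guanylate-binding and immunity-related GTPases, which attack the vacuoles of microbes, 3 rose, 1 fell and 7 were not called. Gbp2, which overlaps Mir6381, had 14.5, 19.0 and 16.8 CPM in saline and 306, 105 and 193 CPM in LPS, Gbp7 had 38.7, 33.8 and 74.5 CPM in saline and 185, 124 and 128 CPM in LPS, and Irgm1 rose by 1.76 ± 0.52 log2 units (adjusted p = 0.0229). Tgtp1 was the member that fell, with 30 reads in saline against 2 in LPS. Of 22 genes of class I presentation and the immunoproteasome, 7 rose, 0 fell and 15 were not called, with a median of 0.96. The light chain B2m had 687, 814 and 941 CPM in saline and 1811, 1567 and 1277 CPM in LPS and the heavy chain H2-K1 315, 216 and 190.0 CPM in saline and 585, 609 and 470.2 CPM in LPS; for both genes the groups were separate. H2-Q4, beside Gm11131, rose by 1.73 ± 0.30 log2 units (adjusted p = 2.23e-04). Nlrc5, the activator of class I genes, rose by 1.83 ± 0.57 log2 units (adjusted p = 0.0349), and its exons also overlap a gene on the opposite strand. Of 8 class II and costimulation genes, the protease gene Ctss rose by 3.34 ± 0.51 log2 units (adjusted p = 4.38e-05), and the others did not pass. No gene named in this paragraph had overlapping groups. Irf9 lost its call without WT-LPS 1, WT-LPS 2, WT-Saline 1 or WT-Saline 3 (adjusted p 0.0584 to 0.0832), Stat5a without WT-LPS 1 (adjusted p = 0.0508), Irgm1 without WT-LPS 1, WT-LPS 2, WT-Saline 1 or WT-Saline 2 (adjusted p 0.0831 to 0.142), Tgtp1 without each of the 6 WT libraries in turn (adjusted p 0.054 to 0.17) and Nlrc5 without WT-LPS 1, WT-LPS 2, WT-LPS 3, WT-Saline 2 or WT-Saline 3 (adjusted p 0.0563 to 0.208). Irf9, Stat5a, Irgm1, Tgtp1, B2m, H2-K1 and Nlrc5 were not called by limma without a mean-variance trend (adjusted p 0.0731 to 0.149). Risen class I presentation genes numbered 1 without the trend.

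Among the lists counted, whose members were chosen with earlier results of these data known, genes of specific granule proteins had the largest share of rises. This granule holds iron-binding and antimicrobial proteins that are transcribed in myelocytes and metamyelocytes of the marrow and are low in mature blood cells. Of 25 genes measured, 14 rose, 1 fell and 10 were not called, with a median log2 change of 1.49, and their summed level went from 5001 CPM in saline to 20032 CPM in LPS. Lcn2 rose by 4.13 ± 0.44 log2 units (adjusted p = 6.26e-07), beside the rises of Chil3 and Ngp already given. Cd177, a surface protein of neutrophils stored in this granule, had 104, 57.1 and 65.2 CPM in saline and 642, 757 and 795 CPM in LPS and rose by 3.30 ± 0.41 log2 units (adjusted p = 4.04e-06). Itgb2l, a beta-2-like integrin subunit, had 12.1, 0 and 5.59 CPM in saline and 126, 94.9 and 141 CPM in LPS and rose by 4.73 ± 0.86 log2 units (adjusted p = 3.30e-04). Ltf, the iron-binding lactoferrin, had 33.9, 16.9 and 37.3 CPM in saline and 581, 127 and 411 CPM in LPS; the second LPS library was lower than the others, and the rise was 3.44 ± 0.52 log2 units (adjusted p = 3.96e-05). Mmp8, neutrophil collagenase, had 382, 258 and 212 CPM in saline and 1247, 1358 and 1193 CPM in LPS. Camp, the cathelicidin gene, had 2 reads in saline against 71 in LPS, a ratio of 35.2 (95% counting interval 9.40 to 297). Slpi, an inhibitor of elastase, was the member that fell, by 1.14 ± 0.30 log2 units (adjusted p = 0.0121). For each of these genes the groups did not overlap. Slpi lost its call without WT-LPS 1, WT-Saline 1 or WT-Saline 3 (adjusted p 0.0573 to 0.0879). Camp and Slpi were not called by limma without a mean-variance trend (adjusted p 0.078 to 0.157). Risen specific granule genes numbered 8 without the trend. Immature neutrophil markers, which include Chil3, Camp, Ngp, Ltf and Lcn2, moved with this list; the other 7 measured members of that marker list did not pass, Mki67, a marker of dividing cells, going from 1881 ± 462 to 2444 ± 285 CPM (SD, n = 3). The part of a changed mix of cells in the result was not tested.

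Promoters of 3 granule genes are shown because C/EBP factors, which drive granule genes during maturation, recognise a motif near their start. The motif searched was TTGCNNAA on either strand in the same table. Among the called specific granule genes it was held by 5 of 14 (35.7%), and among all measured ones by 7 of 20 (35.0%). It was in 64 of 507 (12.6%) risen genes, 50 of 359 (13.9%) fallen genes and 775 of 7484 (10.4%) of all genes tested. The 250 bases before each start are printed as above.
Ngp: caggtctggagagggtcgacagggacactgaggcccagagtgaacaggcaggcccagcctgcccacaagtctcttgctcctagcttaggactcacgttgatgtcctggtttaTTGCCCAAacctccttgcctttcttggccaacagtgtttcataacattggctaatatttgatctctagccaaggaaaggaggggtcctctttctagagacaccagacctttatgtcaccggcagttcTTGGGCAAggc
Lcn2: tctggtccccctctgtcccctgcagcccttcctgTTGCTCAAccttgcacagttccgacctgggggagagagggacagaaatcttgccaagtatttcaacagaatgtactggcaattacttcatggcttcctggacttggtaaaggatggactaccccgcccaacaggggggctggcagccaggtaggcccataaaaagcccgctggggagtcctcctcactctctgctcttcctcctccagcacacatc
Ltf: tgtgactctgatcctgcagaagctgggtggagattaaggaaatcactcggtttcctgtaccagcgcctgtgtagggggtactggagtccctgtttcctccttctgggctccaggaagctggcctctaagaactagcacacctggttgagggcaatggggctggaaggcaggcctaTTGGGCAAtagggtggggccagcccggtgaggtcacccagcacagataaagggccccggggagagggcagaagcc

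These stretches are chr9:110419558-110419807, plus strand, for Ngp, chr2:32387740-32387989, minus strand, for Lcn2, and chr9:111019042-111019291, plus strand, for Ltf. Ngp has matches starting 138 and 11 bases before the start, Lcn2 1 match at 216 and Ltf 1 at 75. Camp and Chil3, which rose beside them, held no match to these letters in this window.

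Some genes counted with the other granule classes and the oxidase rose. The azurophil list holds genes of the granule made earliest and an inhibitor of its proteases. Of 11 measured, 2 rose, 0 fell and 9 were not called. Serpinb1a, the inhibitor that restrains the granule proteases, had 2 reads in saline against 78 in LPS, a ratio of 38.7 (95% counting interval 10.4 to 325). Prss57, beside Fstl3, rose by 1.34 ± 0.38 log2 units (adjusted p = 0.0171). Of 19 gelatinase granule and secretory vesicle genes, 7 rose, 3 fell and 9 were not called. Mmp25, a membrane-bound protease, had 114, 80.3 and 156 CPM in saline and 419.6, 382 and 578 CPM in LPS. Cybb, the catalytic subunit of the phagocyte oxidase, had 38.7, 14.8 and 13.04 CPM in saline and 116, 118 and 104 CPM in LPS and rose by 2.46 ± 0.54 log2 units (adjusted p = 0.00262). Vnn3, a pantetheinase, had 102, 88.8 and 44.7 CPM in saline and 4.74, 4.22 and 3.72 CPM in LPS and changed by -3.83 ± 0.65 log2 units (adjusted p = 1.59e-04). Of 33 oxidase and redox genes, 8 rose, 1 fell and 24 were not called. Ncf4, a cytosolic subunit of the oxidase, had 121, 82.4 and 119 CPM in saline and 296, 369 and 325 CPM in LPS, and Gpx3, a glutathione peroxidase, 65.4, 67.6 and 72.6 CPM in saline and 306, 238 and 262 CPM in LPS. Nos2, inducible nitric oxide synthase, had 9.68, 10.6 and 9.31 CPM in saline and 123, 114 and 72.5 CPM in LPS and rose by 3.22 ± 0.81 log2 units (adjusted p = 0.00777). The LPS and saline values of each named gene were separate. Prss57 lost its call without WT-LPS 3, WT-Saline 1 or WT-Saline 2 (adjusted p 0.0605 to 0.122). Prss57, Cybb, Gpx3 and Nos2 were not called by limma without a mean-variance trend (adjusted p 0.058 to 0.0961). Risen azurophil granule genes numbered 1 without WT-LPS 3 or WT-Saline 1 or 2 and 1 without the trend, and fallen ones 1 without WT-LPS 1. Risen gelatinase granule and vesicle genes numbered 3 without the trend, and fallen ones 1 without the trend. Risen oxidase and redox genes numbered 1 without the trend.

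Small secreted proteins and proteases rose more often than they fell. Of 25 stefins, calprotectin subunits and other small secreted proteins, 11 rose, 2 fell and 12 were not called, with a median log2 change of 0.96. Prok2, prokineticin 2, had 0, 12.7 and 1.86 CPM in saline and 68.7, 253 and 96.6 CPM in LPS and rose by 5.06 ± 0.97 log2 units (adjusted p = 6.44e-04). The acute-phase protein gene Saa3 had 0 and 42 reads, at least 4.57-fold higher. Of 31 proteases and inhibitors, 9 rose, 2 fell and 20 were not called; Mmp8, Mmp25 and Ctss were among the rises. Of 16 complement and coagulation genes, 3 rose, 1 fell and 12 were not called. The complement component C3 had 138, 133 and 207 CPM in saline and 635, 654 and 702 CPM in LPS and rose by 2.08 ± 0.40 log2 units (adjusted p = 5.88e-04). F10, coagulation factor X, had 1 and 46 reads, a ratio of 45.6 (95% counting interval 7.79 to 1842), while Thbd, thrombomodulin, changed by -1.45 ± 0.42 log2 units (adjusted p = 0.0223). None of these genes had overlapping groups. Saa3 lost its call without WT-LPS 1 or WT-LPS 3 (adjusted p 0.0538 to 0.0549), F10 without WT-LPS 3, WT-Saline 2 or WT-Saline 3 (adjusted p 0.0582 to 0.0611) and Thbd without WT-LPS 2, WT-Saline 1 or WT-Saline 2 (adjusted p 0.0645 to 0.178). Prok2, Saa3, C3, F10 and Thbd were not called by limma without a mean-variance trend (adjusted p 0.0651 to 0.111). Risen small secreted proteins numbered 7 without WT-LPS 1 or 3 or WT-Saline 1 or 2 and 4 without the trend, and fallen ones 1 without WT-LPS 1 or WT-Saline 1 or 3 and 0 without the trend. Risen proteases and inhibitors numbered 5 without WT-LPS 3 and 4 without the trend, and fallen ones 1 without WT-Saline 2 or 3 and 1 without the trend. Risen complement and coagulation genes numbered 1 without WT-Saline 2 or 3 and 0 without the trend.

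Pattern-recognition and inhibitory receptors of the surface fell more often than they rose. Of 44 C-type lectin, Fc and paired immunoglobulin receptors, 3 rose, 10 fell and 31 were not called, with a median of -0.49 (-0.38 with genes lacking reads in a group at their bound). Besides Clec9a and Clec7a, Clec4e, known as Mincle, the receptor for mycobacterial glycolipid, had 438, 438 and 555 CPM in saline and 97.2, 146 and 102 CPM in LPS and changed by -2.06 ± 0.30 log2 units (adjusted p = 2.43e-05). Clec12b changed by -2.68 ± 0.86 log2 units (adjusted p = 0.0406) and Cd300c2, of the CD300 family of paired receptors, by -2.55 ± 0.69 log2 units (adjusted p = 0.0137). In all 3 the saline values were above the LPS values. Clec9a and Itgax are also on the dendritic cell marker list, of which 7 other measured members did not pass; the part of dendritic cells in these falls was not tested. Clec12b lost its call without each of the 6 WT libraries in turn (adjusted p 0.0609 to 0.147) and Cd300c2 without WT-LPS 1, WT-LPS 3, WT-Saline 2 or WT-Saline 3 (adjusted p 0.0539 to 0.07). Clec12b and Cd300c2 were not called by limma without a mean-variance trend (adjusted p 0.0644 to 0.188). Risen lectin, Fc and paired receptors numbered 1 without the trend, and fallen ones 4 without the trend.

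The LPS receptor itself was not among the called genes. Tlr4 had 58.1, 108 and 85.7 CPM in saline and 83.0, 122 and 89.2 CPM in LPS, groups that overlap, and a change of 0.25 ± 0.34 log2 units (adjusted p = 0.728). Of 39 genes of the TLR4 complex and its signalling, 6 rose, 2 fell and 31 were not called, with a median of 0.39. The falls were near the 4.96% of all genes that fell. Lbp, which hands LPS to CD14, had 0 and 53 reads and was at least 5.78-fold higher. Tnip1, a ubiquitin-binding brake on NF-kB, had 84.7, 55.0 and 65.2 CPM in saline and 595, 339.5 and 401 CPM in LPS and rose by 2.67 ± 0.42 log2 units (adjusted p = 6.50e-05). Traf6, the ubiquitin ligase downstream of MyD88, had 82.3, 175 and 127 CPM in saline and 37.9, 6.33 and 18.6 CPM in LPS and changed by -2.79 ± 0.61 log2 units (adjusted p = 0.00243), and the kinase gene Irak1 had 38 and 6 reads. Irak1 lost its call without WT-LPS 2, WT-LPS 3, WT-Saline 1 or WT-Saline 2 (adjusted p 0.0643 to 0.1). Traf6 and Irak1 were not called by limma without a mean-variance trend (adjusted p 0.0782 to 0.0823). Of 36 feedback inhibitors of cytokine and TLR signalling, 10 rose, 4 fell and 22 were not called. Nfkbia, the inhibitor of NF-kB that NF-kB itself induces, had 72.6, 127 and 83.8 CPM in saline and 474, 375 and 429 CPM in LPS and rose by 2.20 ± 0.31 log2 units (adjusted p = 1.91e-05), while Nfkbid, a nuclear relative, had 121, 125 and 108 CPM in saline and 35.6, 33.7 and 20.4 CPM in LPS and changed by -1.98 ± 0.44 log2 units (adjusted p = 0.00249). Atf3, a repressor of inflammatory genes, had 128, 108 and 83.8 CPM in saline and 11.9, 2.11 and 1.86 CPM in LPS, a change of -4.45 ± 0.91 log2 units (adjusted p = 0.00124). Apart from Tlr4, the groups of each gene named here were separate. Atf3 was not called by limma without a mean-variance trend (adjusted p = 0.0554). Risen genes of the TLR4 complex and its signalling numbered 3 without the trend, and fallen ones 1 without WT-LPS 3 or WT-Saline 1 or 2 and 0 without the trend. Risen feedback inhibitors numbered 3 without the trend, and fallen ones 2 without WT-LPS 2 or 3 or WT-Saline 2 and 1 without the trend.

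Receptors for chemoattractants and growth factors went both ways. Of 18 chemoattractant receptors, 5 rose, 2 fell and 11 were not called. Fpr1, a receptor for formylated peptides of bacteria, had 50.8, 84.6 and 54.0 CPM in saline and 386, 293 and 294 CPM in LPS. Fpr2, its close relative, had 89.6, 93.0 and 55.9 CPM in saline and 519, 337 and 366 CPM in LPS. Ltb4r1, the receptor for leukotriene B4, had 24.2, 23.3 and 44.7 CPM in saline and 168, 152 and 147 CPM in LPS. All 3 rose without overlap, by 2.37 ± 0.35, 2.35 ± 0.37 and 2.36 ± 0.38 log2 units. Cxcr4, which holds neutrophils in the marrow and brings aged ones back to it, had 595, 425 and 350.2 CPM in saline and 104, 78.0 and 83.6 CPM in LPS and changed by -2.33 ± 0.40 log2 units (adjusted p = 1.94e-04). Cxcr2, the main receptor for mobilising chemokines, had 919.8, 907 and 806 CPM in saline and 657, 953 and 641 CPM in LPS and did not pass, at -0.25 ± 0.21 log2 units (adjusted p = 0.519). Of 33 cytokine receptors, 5 rose, 3 fell and 25 were not called. Ifnlr1, the receptor for type III interferon, had 2.42, 10.6 and 39.1 CPM in saline and 92.4, 61.2 and 92.9 CPM in LPS and rose by 2.78 ± 0.59 log2 units (adjusted p = 0.00166), and Il2rg, the common gamma chain, had 5 and 63 reads. Of 30 integrins and adhesion molecules, 7 rose, 3 fell and 20 were not called. Spn, the sialomucin CD43, had 12.1, 8.46 and 3.73 CPM in saline and 311, 171 and 268 CPM in LPS and rose by 4.86 ± 0.80 log2 units (adjusted p = 1.06e-04). Apart from Cxcr2, no gene of this paragraph had overlapping groups. Il2rg lost its call without WT-LPS 1, WT-LPS 3 or WT-Saline 1 (adjusted p 0.0531 to 0.0578). Cxcr4, Ifnlr1 and Il2rg were not called by limma without a mean-variance trend (adjusted p 0.0504 to 0.0672). Risen chemoattractant receptors numbered 3 without the trend, and fallen ones 1 without WT-LPS 1 or 3 or WT-Saline 2 or 3 and 0 without the trend. Risen cytokine receptors numbered 2 without WT-Saline 1, 3 without WT-LPS 1, 2 or 3 or WT-Saline 2 and 0 without the trend, and fallen ones 1 without WT-LPS 2 or WT-Saline 1 or 2 and 0 without the trend.

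Cytokine genes went both ways, and several of the risen ones had few reads. Of 26 cytokines and chemokines, 8 rose, 4 fell and 14 were not called. The 4 that fell were Il1b, with the levels given above and an overlap with Il1bos, at -2.22 ± 0.42 log2 units (adjusted p = 4.94e-04), the chemokine gene Ccl6 (913 reads in saline and 188 in LPS), Csf1, the macrophage growth factor (334 and 94), and Tnfsf14 (159 and 54). Among the rises Ccl3, a chemokine also known as MIP-1 alpha, had 117 reads in saline and 506 in LPS. These 5 genes had separate groups, and the last 4 were picked after their values were seen. Tnfsf14 lost its call without WT-LPS 1, WT-LPS 3 or WT-Saline 3 (adjusted p 0.0581 to 0.0969). Il1b, Ccl6, Csf1, Tnfsf14 and Ccl3 were not called by limma without a mean-variance trend (adjusted p 0.0536 to 0.0972). Il10, the anti-inflammatory interleukin-10, had 0, 4.23 and 5.59 CPM in saline and 306, 50.6 and 85.5 CPM in LPS; all 3 LPS libraries were above saline, the first far above the others, and the rise was 5.002 ± 1.05 log2 units (adjusted p = 0.00154). Cxcl2 had 11 reads in saline against 74 in LPS, Tnf 16 and 89, and Il12a 6 and 46; all 3 rose. Their groups did not overlap. Cxcl2 lost its call without WT-LPS 1, WT-LPS 2, WT-Saline 2 or WT-Saline 3 (adjusted p 0.0647 to 0.159), Tnf without WT-LPS 1, WT-LPS 2, WT-LPS 3 or WT-Saline 3 (adjusted p 0.0832 to 0.31) and Il12a without WT-LPS 1, WT-LPS 2 or WT-Saline 1 (adjusted p 0.0816 to 0.0893). Il10, Cxcl2, Tnf and Il12a were not called by limma without a mean-variance trend (adjusted p 0.0626 to 0.168). Risen cytokines numbered 2 without WT-LPS 2, 3 without WT-LPS 1, 4 without WT-Saline 2 or 3, 5 without WT-LPS 3 and 0 without the trend, and fallen ones 0 without the trend. Of 27 inflammasome and pyroptosis genes, 5 rose, 5 fell and 17 were not called. The sensor gene Nlrp3 had 404, 351 and 350.2 CPM in saline and 94.8, 108 and 98.5 CPM in LPS and changed by -1.86 ± 0.41 log2 units (adjusted p = 0.00243), while Naip5, which detects flagellin, had 7.26, 4.23 and 1.86 CPM in saline and 71.1, 44.3 and 63.2 CPM in LPS and rose by 3.57 ± 0.78 log2 units (adjusted p = 0.00246). Both were without overlap. Of 14 leukotriene and prostaglandin genes, 3 rose, 2 fell and 9 were not called. Nlrp3 was not called by limma without a mean-variance trend (adjusted p = 0.101). Risen inflammasome genes numbered 2 without WT-LPS 1, 2 or 3 or WT-Saline 3, 3 without WT-Saline 1 or 2 and 1 without the trend, and fallen ones 0 without the trend. Risen leukotriene and prostaglandin genes numbered 1 without WT-LPS 1, 2 or 3 or WT-Saline 1 or 2 and 0 without the trend, and fallen ones 1 without WT-LPS 2 or WT-Saline 1 or 2 and 0 without the trend.

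Immediate-early genes fell more often than they rose. These genes, among them the AP-1 subunits of the Fos and Jun families, are transcribed within minutes of a stimulus and their RNAs are short-lived. Of 38 measured, 2 rose, 13 fell and 23 were not called, with a median log2 change of -0.89, and their summed level went from 15454 CPM in saline to 8612 CPM in LPS. Fos had 1702, 1349 and 970.4 CPM in saline and 192, 82.2 and 65.0 CPM in LPS and changed by -3.68 ± 0.59 log2 units (adjusted p = 8.28e-05). Fosb and Atf3, given above, had the other large falls. Mcl1, which keeps neutrophils alive, had 1515, 1566 and 1293 CPM in saline and 808, 757 and 794 CPM in LPS and changed by -0.89 ± 0.23 log2 units (adjusted p = 0.0101). Nr4a1, an orphan nuclear receptor, went the other way, with 77.5, 82.4 and 50.3 CPM in saline and 401, 207 and 319.6 CPM in LPS, a rise of 2.10 ± 0.40 log2 units (adjusted p = 6.44e-04). For these called genes the groups were separate. Egr1, another gene of this class, had 16.9, 21.1 and 0 CPM in saline and 2.37, 6.33 and 0 CPM in LPS and did not pass, at -1.31 ± 1.33 log2 units (adjusted p = 0.612). Mcl1 lost its call without WT-Saline 2 (adjusted p = 0.053). Fos, Mcl1 and Nr4a1 were not called by limma without a mean-variance trend (adjusted p 0.0513 to 0.159). Risen immediate-early genes numbered 1 without the trend, and fallen ones 8 without WT-Saline 2 and 1 without the trend.

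The promoter of Fos is shown for a match to the NF-kB motif, which was also found in that of Fosb. The motif, searched by name on both strands, was in 4 of 15 (26.7%) called immediate-early genes with an entry and 6 of 35 (17.1%) of those measured. Among risen genes it was in 38 of 507 (7.5%), among fallen genes in 29 of 359 (8.1%), and among all genes in 472 of 7484 (6.3%). The cAMP response element TGACGTCA was in 2 of 15 (13.3%) called immediate-early genes and 255 of 7484 (3.4%) of all genes. The serum response element, searched by name, was in 1 of 15 (6.7%) and 112 of 7484 (1.5%), and the AP-1 motif TGANTCA in 1 of 15 (6.7%) and 494 of 7484 (6.6%). The gamma-activated site TTCNNNGAA was in 48 of 507 (9.5%) risen genes, 38 of 359 (10.6%) fallen genes and 625 of 7484 (8.4%) of all genes. The stretch is chr12:85473640-85473889, plus strand, and the match, in capitals, starts 214 bases before the start.
Fos: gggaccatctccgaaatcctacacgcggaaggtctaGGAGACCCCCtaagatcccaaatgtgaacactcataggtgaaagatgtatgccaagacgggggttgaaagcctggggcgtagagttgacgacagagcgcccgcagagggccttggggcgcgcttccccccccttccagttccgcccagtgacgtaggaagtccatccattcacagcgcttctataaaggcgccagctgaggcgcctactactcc

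Genes of cholesterol and lipid handling, Lipg among them, rose more often than they fell. Cells short of sterol release SREBP-2, which raises the genes of cholesterol synthesis. Of 43 sterol, fatty acid and lipase genes, 11 rose, 3 fell and 29 were not called, with a median of 0.49. The share of falls was near the 4.96% of all genes. Lpl, lipoprotein lipase, had 1 and 35 reads, a ratio of 34.7 (95% counting interval 5.84 to 1410.5). Insig1, which holds SREBP in the endoplasmic reticulum, had 0 and 21 reads, at least 2.19-fold. Apoe, the apolipoprotein that carries cholesterol out of cells and a macrophage marker, had 92.0, 80.3 and 72.6 CPM in saline and 7.11, 2.11 and 18.6 CPM in LPS and changed by -3.36 ± 0.73 log2 units (adjusted p = 0.00232). The groups of these 3 genes were separate. Lpl lost its call without WT-LPS 2, WT-LPS 3, WT-Saline 1 or WT-Saline 3 (adjusted p 0.0656 to 0.117) and Insig1 without WT-LPS 3 (adjusted p = 0.075). Lpl was not called by limma without a mean-variance trend (adjusted p = 0.062). Risen sterol and lipid genes numbered 5 without WT-LPS 3, 6 without WT-LPS 2, 7 without WT-Saline 3 and 5 without the trend, and fallen ones 1 without WT-LPS 1 or WT-Saline 1 and 1 without the trend.

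Other metabolic and hormone-response genes gave mixed counts. Of 23 glucocorticoid-induced genes, 7 rose, 6 fell and 10 were not called. Fkbp5, a chaperone of the glucocorticoid receptor, had 9.68, 12.7 and 18.6 CPM in saline and 299, 177 and 294 CPM in LPS and rose by 4.13 ± 0.61 log2 units (adjusted p = 3.21e-05), while Rgs2, a brake on G protein signals, had 290.5, 260.0 and 298 CPM in saline and 78.2, 71.7 and 52.0 CPM in LPS and changed by -2.07 ± 0.44 log2 units (adjusted p = 0.00168). Of 23 iron and haem genes, 4 rose, 3 fell and 16 were not called; Steap4, a metalloreductase, changed by -2.65 ± 0.66 log2 units (adjusted p = 0.00687). Of 14 clock genes, 3 rose, 1 fell and 10 were not called. Clock itself had 165, 116 and 98.7 CPM in saline and 315, 373 and 398 CPM in LPS and rose by 1.54 ± 0.29 log2 units (adjusted p = 5.25e-04), and Bhlhe40, a clock repressor beside 0610040F04Rik, had 3 and 111 reads, a ratio of 36.7 (95% counting interval 12.2 to 181). Of 34 hypoxia-response genes, 5 rose, 3 fell and 26 were not called; the lipid droplet protein gene Plin2 had 9.68, 44.4 and 37.3 CPM in saline and 194, 164 and 171 CPM in LPS. Of 26 genes of the integrated stress and unfolded protein responses, 4 rose, 2 fell and 20 were not called. Falls among the hypoxia-response and these stress-response genes were near the 4.96% of all genes. Of 15 heat shock genes, 1 rose, 2 fell and 12 were not called. Stip1, a co-chaperone, had 269, 188 and 175 CPM in saline and 583, 586 and 576 CPM in LPS. No named gene here had overlapping groups. Steap4 lost its call without WT-LPS 3 or WT-Saline 3 (adjusted p 0.0657 to 0.0691). Rgs2, Steap4, Plin2 and Stip1 were not called by limma without a mean-variance trend (adjusted p 0.0592 to 0.15). Risen glucocorticoid-induced genes numbered 3 without the trend, and fallen ones 1 without WT-Saline 1, 2 without WT-LPS 3, 3 without WT-LPS 2 or WT-Saline 2 or 3 and 0 without the trend. Risen iron and haem genes numbered 2 without the trend, and fallen ones 1 without WT-Saline 3 and 0 without the trend. Risen hypoxia-response genes numbered 3 without WT-Saline 1 and 1 without the trend, and fallen ones 1 without WT-LPS 1 or WT-Saline 1 or 3. Risen stress-response genes numbered 1 without WT-LPS 1 or 2 or WT-Saline 3, 2 without WT-LPS 3 or WT-Saline 2 and 1 without the trend, and fallen ones 0 without WT-Saline 1 or 3, 1 without WT-LPS 1, 2 or 3 or WT-Saline 2 and 0 without the trend. Fallen heat shock genes numbered 1 without WT-LPS 1 or WT-Saline 1 or 3 and 1 without the trend.

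Some signalling, cytoskeletal and nuclear genes were called, beside 6.72% of all genes rising and 4.96% falling. Falls among the G protein-coupled receptor genes were near that share. Of 45 purinergic, prostanoid and other G protein-coupled receptor genes, 6 rose, 2 fell and 37 were not called. Adora2a, the adenosine receptor that quiets neutrophils, had 0 and 55 reads and was at least 5.92-fold higher, and P2rx4, an ATP-gated channel, had 19.4, 42.3 and 37.3 CPM in saline and 199, 162 and 159.8 CPM in LPS. Of 48 RGS, PI3K and Src-family genes, 6 rose, 4 fell and 38 were not called; the 2 beta-arrestin genes parted, Arrb1 with 109, 104 and 171 CPM in saline and 28.4, 33.7 and 78.1 CPM in LPS and Arrb2 with 157, 137 and 184 CPM in saline and 595, 386 and 396 CPM in LPS. Of 55 actin and motility genes, 10 rose, 4 fell and 41 were not called. Capg, which caps actin filaments, had 14.5, 31.7 and 27.9 CPM in saline and 206, 202 and 245 CPM in LPS and rose by 3.15 ± 0.46 log2 units (adjusted p = 2.65e-05), while Gsn, gelsolin, had 324, 323 and 341 CPM in saline and 59.3, 103 and 117 CPM in LPS and changed by -1.87 ± 0.36 log2 units (adjusted p = 6.96e-04). Of 14 genes tied to the nuclear envelope or to extracellular traps, 3 rose, 2 fell and 9 were not called. Syne1, a nesprin that links the nucleus to the cytoskeleton, had 157, 125 and 179 CPM in saline and 796, 620.0 and 840.0 CPM in LPS, and Lmnb1, lamin B1, 201, 245 and 179 CPM in saline and 47.4, 82.2 and 27.9 CPM in LPS. The groups were separate for every gene named. Of 61 myeloid transcription factors, 11 rose, 7 fell and 43 were not called. Arrb1 lost its call without WT-LPS 1 or WT-Saline 3 (adjusted p 0.0642 to 0.0723). P2rx4, Arrb1, Gsn and Lmnb1 were not called by limma without a mean-variance trend (adjusted p 0.0622 to 0.0688). Risen G protein-coupled receptor genes numbered 2 without the trend, and fallen ones 1 without WT-LPS 3 and 1 without the trend. Risen RGS, PI3K and Src-family genes numbered 1 without the trend, and fallen ones 1 without WT-Saline 3, 2 without WT-LPS 1 or WT-Saline 1 and 1 without the trend. Risen actin and motility genes numbered 4 without WT-LPS 2, 5 without WT-LPS 3 or WT-Saline 2 and 2 without the trend, and fallen ones 2 without any 1 WT library and 0 without the trend. Fallen envelope and trap genes numbered 1 without WT-LPS 1 or WT-Saline 1 and 1 without the trend. Risen transcription factors numbered 5 without WT-LPS 3, 6 without WT-LPS 1 or WT-Saline 1, 7 without WT-LPS 2 or WT-Saline 2 and 2 without the trend, and fallen ones 3 without WT-Saline 1 or 3, 4 without WT-LPS 1 or WT-Saline 2 and 2 without the trend.

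In the next 9 gene classes, most of them of general cell upkeep, the share called was below the 11.7% of all genes, for some of them by little. Of 71 cytosolic ribosomal protein genes 1 rose and 2 fell, of 37 proteasome subunits none was called, and of 67 respiratory chain subunits 1 rose. Of 54 splicing factors and hnRNPs 1 rose and 1 fell, of 158 Zfp zinc finger genes 3 rose and 5 fell, and of 161 solute carriers 4 rose and 8 fell. Apoptosis regulators gave 1 rise and 1 fall of 27, autophagy genes 1 rise and 2 falls of 37, and mRNA decay factors 1 rise and 3 falls of 40. Ubiquitin-specific proteases, with 4 rises and 1 fall of 36 (13.9%), were close to that share. So were dual-specificity phosphatases and MAP kinases, with 5 rises and 2 falls of 51 (13.7%). The heat shock genes, with 3 of 15 called, are too few to be set apart from it. Risen solute carriers numbered 2 without WT-LPS 1 and 2 without the trend, and fallen ones 4 without WT-LPS 3 or WT-Saline 1, 5 without WT-LPS 2 and 2 without the trend. Fallen zinc finger genes numbered 1 without WT-LPS 3 or WT-Saline 1, 2 without WT-LPS 1 or WT-Saline 2, 3 without WT-LPS 2 or WT-Saline 3 and 1 without the trend. Fallen mRNA decay factors numbered 1 without WT-LPS 3 or WT-Saline 1 and 1 without the trend. Risen ubiquitin-specific proteases numbered 2 without WT-LPS 2 or 3 or WT-Saline 2 or 3. Risen phosphatases and MAP kinases numbered 3 without WT-LPS 1 or WT-Saline 1 and 0 without the trend, and fallen ones 1 without WT-LPS 2 or 3 or WT-Saline 1 or 2 and 0 without the trend. Fallen ribosomal protein genes numbered 0 without WT-Saline 3, 1 without WT-LPS 1, 2 or 3 or WT-Saline 1 or 2 and 0 without the trend. Fallen autophagy genes numbered 1 without WT-LPS 1 or 3 or WT-Saline 2 and 0 without the trend. These classes differ in level, and the 71 ribosomal protein genes together held 2365 CPM in saline and 2118 CPM in LPS. Whether such sums carry reads of the other strand was not tested.

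**Figure D3:**
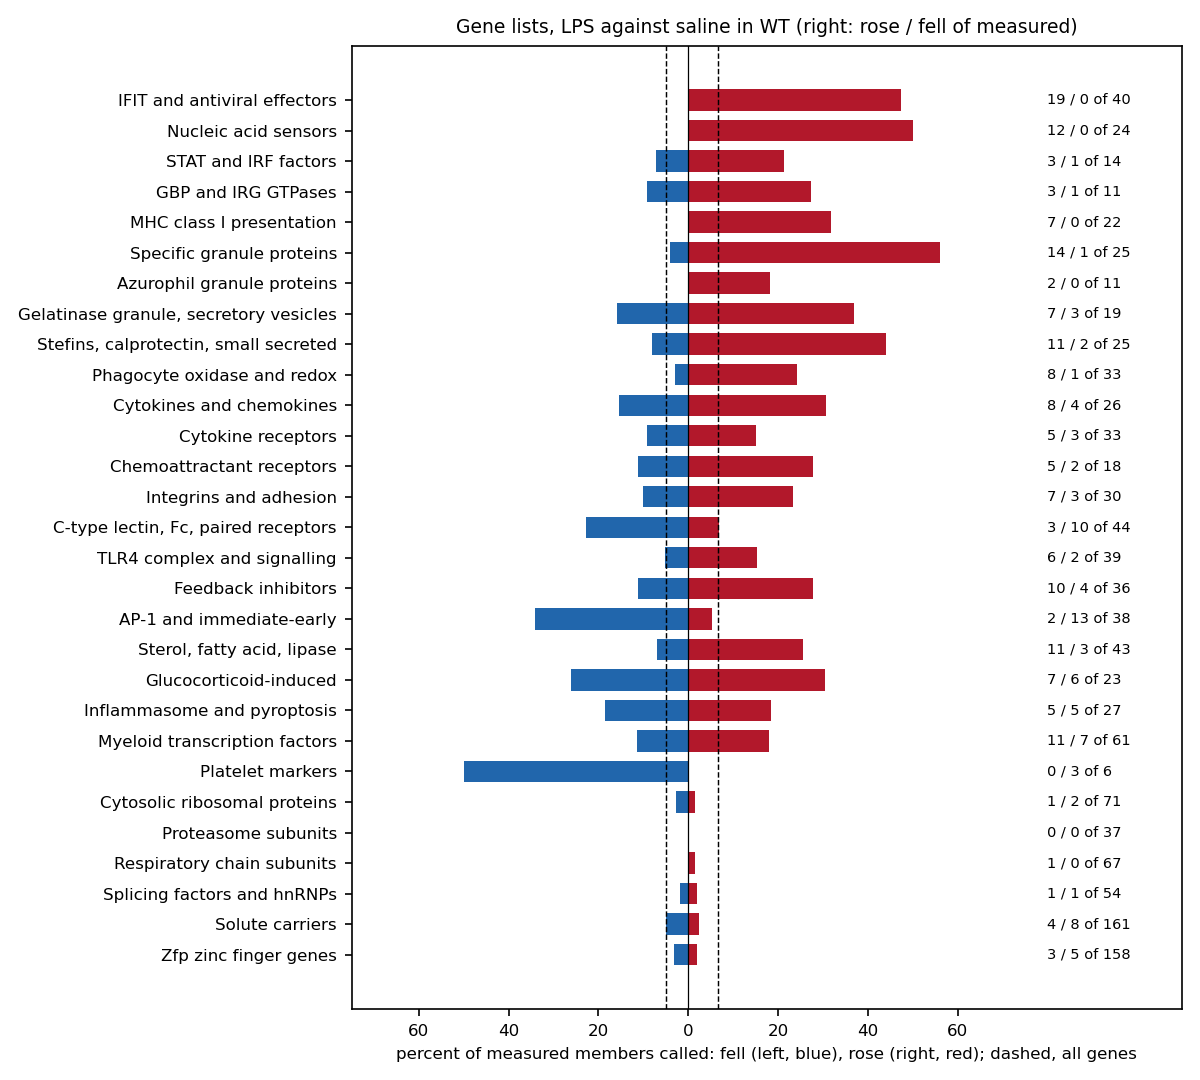
For each of 29 gene lists, the percent of measured members that rose (red, to the right) or fell (blue, to the left) in LPS, with the counts printed at the right as rose / fell of measured; dashed lines mark all genes, 6.72% rising and 4.96% falling. Antiviral effectors, nucleic acid sensors and specific granule proteins reach from 47.5% to 56.0% on the right, and immediate-early genes 34.2% on the left. The longest bar on the left is 3 of 6 platelet markers. Members of the lists were chosen with earlier results of these data known.

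Some called genes lay in rows on the chromosome. A risen gene was the direct measured neighbour, without overlap, of 138 of 622 risen genes placed on the genome (22.2%) and of 10.5% of all 9296 placed genes. For fallen genes the values were 110 of 461 (23.9%) and 7.8%. In this order, 5 measured genes in a row rose in the Ifi200 family on chromosome 1 (173630917 to 173913046, mm10): Ifi209, Ifi208, Ifi207, Ifi204 and Ifi211, by 4.18 ± 1.07, 4.61 ± 1.04, 2.95 ± 0.88, 2.38 ± 0.41 and 3.89 ± 1.06 log2 units. Ifi208 and Ifi211 had no saline reads, so their fitted values are set in part by the 0.5 reads added.

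A run of 5 fallen genes on chromosome 6 (129375515 to 129472779) held the C-type lectins Clec12b, Clec1b, Clec9a, Clec1a and Clec7a, which changed by -2.68 ± 0.86, -4.37 ± 1.14, -6.75 ± 0.84, -4.24 ± 1.01 and -4.31 ± 0.72 log2 units. Clec1b and Clec9a had no reads in LPS and were at least 3.45-fold and 18.8-fold lower. These 2 genes share exon bases on the same strand, so their falls are not separate measurements where reads lie there; Clec1b, known as CLEC-2, is also a platelet marker, a list of which 3 of 6 fell. The neighbours Clec12a and Olr1 on either side did not pass, at -1.71 ± 0.68 log2 units (adjusted p = 0.106) and -0.62 ± 1.12 log2 units (adjusted p = 0.802). Another run of 5 on chromosome 8 (18932729 to 19064810) held Xkr5 and the beta-defensins Defb40, Defb37, Defb38 and Defb39, antimicrobial peptides otherwise known from epithelia. Defb40 had 448, 624 and 436 CPM in saline and 80.6, 92.8 and 81.8 CPM in LPS and changed by -2.53 ± 0.30 log2 units (adjusted p = 2.57e-06), and Defb38 had 165, 171 and 151 CPM in saline and 30.8, 10.5 and 9.29 CPM in LPS and changed by -3.39 ± 0.55 log2 units (adjusted p = 8.68e-05). The olfactory receptor genes Olfr458, Olfr457 and Olfr456 on chromosome 6 fell as a run of 3, at -3.13 ± 0.51, -2.93 ± 0.66 and -3.13 ± 0.60 log2 units. Runs of 5 were also found for genes of unlike names. Capn3, Zfp106, Snap23, Lrrc57 and Cdan1 on chromosome 2 fell, and Chil3, 2010016I18Rik, Dennd2d, Cept1 and Dram2 on chromosome 3 rose. The runs given with values were picked out after those values were seen, and whether neighbouring genes carry reads of one another was not tested. Ifi209 lost its call without WT-LPS 1, WT-Saline 2 or WT-Saline 3 (adjusted p 0.0547 to 0.056), Ifi211 without WT-LPS 3 (adjusted p = 0.0632), Ifi207 without WT-LPS 1, WT-LPS 2, WT-LPS 3, WT-Saline 1 or WT-Saline 2 (adjusted p 0.0512 to 0.11) and Clec12b without each of the 6 WT libraries in turn (adjusted p 0.0609 to 0.147). Ifi207, Clec12b, Clec1a, Clec7a, Olfr457 and Olfr456 were not called by limma without a mean-variance trend (adjusted p 0.0599 to 0.188).

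**Figure D4:**
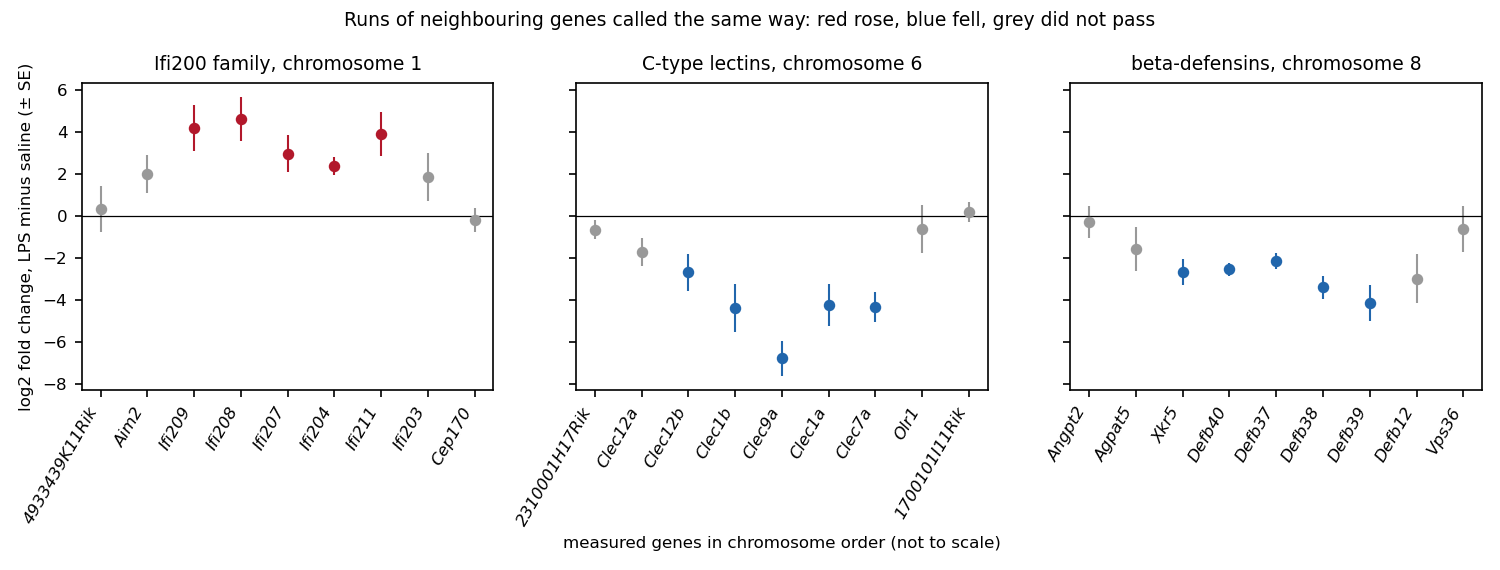
Fitted log2 fold changes, LPS minus saline, with bars of 1 standard error, for the measured genes of 3 chromosome stretches in chromosome order (not to scale); red genes rose, blue fell and grey did not pass. In each stretch the 5 called genes stand in a row and the outermost genes lie between -0.66 and 0.34. Aim2, Ifi203, Clec12a, Agpat5 and Defb12 beside the rows did not pass, at 1.99, 1.86, -1.71, -1.57 and -2.97. Other runs of 5, on chromosomes 2 and 3, are not shown.

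The genes called in WT were set beside the KO-labelled libraries, which share no library with the WT contrast but enter the same estimate of the spread. Hmgb1, the gene named in the line's label, had 25.9 ± 8.83 CPM in WT-Saline and 42.7 ± 17.8 in WT-LPS (SD, n = 3), and its mean was 39.7 CPM in KO-Saline and 41.4 CPM in KO-LPS. In saline the mean was higher in the libraries labelled KO, and in LPS it was lower there by less than the WT-LPS SD; its exons overlap Uspl1 on the other strand and Mm2pr on the same strand, and which exons the deletion removes is not given in the sources used here. The direction was the same there for 606 of the 630 rises (96.2%) and 446 of the 465 falls (95.9%), where 54.7% of all genes were higher in LPS. In those libraries 314 genes, 3.35% of all, were called, 142 of the WT rises and 107 of the WT falls in the same direction and 0 in the other. Lipg had a log2 change of 5.78 ± 0.91 there, Chil3 5.53 ± 1.05, Ngp 2.80 ± 0.55, Ifit2 4.07 ± 0.76 and Nos2 5.11 ± 0.81. Cd101 had -2.66 ± 0.59, Csf3r -1.24 ± 0.30 and Clec9a -1.86 ± 0.84. The median change was 0.995 for the WT rises and -0.957 for the WT falls, below the 1.875 and -1.785 of the WT libraries in which they were chosen; since the genes were chosen on the WT values, the sizes are not compared. The difference between the 2 responses was tested by the interaction term of the same limma fit. It called 0 genes, with 560 at an unadjusted p under 0.05 and a smallest adjusted p of 0.226, and limma without a mean-variance trend called 0. Leaving out KO-LPS 1, KO-LPS 2, KO-LPS 3 or WT-LPS 2 gave 3, 7, 6 and 1 calls. For 3 genes chosen after their values were seen, Csnk1d changed by -2.16 ± 0.31 in WT and -0.03 ± 0.31 in KO-labelled libraries (interaction adjusted p = 0.226), Fkbp5 by 4.13 ± 0.61 and 0.39 ± 0.61 (0.272) and Ltf by 3.44 ± 0.52 and 0.38 ± 0.52 (0.292) log2 units. The count of calls in the KO-labelled libraries rested on single libraries: it was 1076 without KO-LPS 1, 32 without KO-LPS 2, 47 without KO-LPS 3, 206, 129 and 108 without KO-Saline 1, 2 and 3, and 16 in limma without a mean-variance trend.

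**Figure D5:**
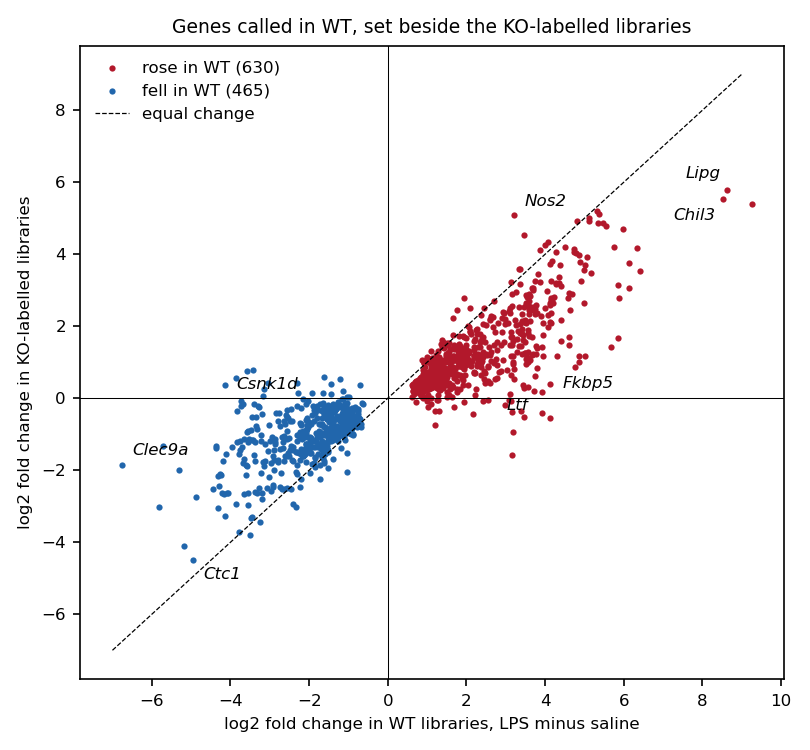
For the 1095 genes called in WT, the fitted log2 fold change in the WT libraries (horizontal) against that in the KO-labelled libraries (vertical); red genes rose in WT, blue genes fell, and the dashed line marks equal change. Most points share the sign of the WT change, 606 of 630 rises and 446 of 465 falls.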

How the data were processed

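The authors deposited 1 table of log2 values for 9374 genes in 12 libraries. The values behave as log2 CPM with 0.5 reads added to each count and scaled between libraries. Whole reads came back from them within 0.0001 for all values, at 405517 to 526757 reads per WT library. Reads were mapped to mm10, per the submitters' processing notes. The sources used here do not name the aligner, the counting tool, the annotation, the strand setting or the gene filter.

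Symbols, gene positions and overlaps came from GENCODE M21 and promoters from RefSeq GRCm38.p6; 9296 of 9374 identifiers were placed. One linear model of 4 group means was fitted to all 12 libraries with limma 3.58.1 in R 4.3.3, with a mean-variance trend and two-sided tests. P-values were adjusted by Benjamini-Hochberg over 9374 genes and called under 0.05. Fold bounds took 3 reads in each library of an empty group, and read ratios have exact 95% binomial intervals. Gene lists were counted without a test. The members and lists were chosen with earlier results of these data known. Named genes were, by a fixed rule, the 12 largest rises and falls without an opposite-strand overlap, the 10 largest changes each way in CPM, up to 4 called members per list, and neutrophil markers. Tlr4, Egr1, Slpi, Hmgb1, Hdc, Ccl3, Ccl6, Csf1 and Tnfsf14 were added after their values were seen, as were neighbours in the rows of genes and the micro-RNA genes. Alternatives were 2 and 5 added reads, library totals, median centring, quantile normalization, voom weights, a model without the trend, a test against a 1.5-fold change, a minimum of 10 mean reads, genes without opposite-strand overlap, only the 6 WT libraries, a replicate block, and each library left out. Some genes the rule picks are not reported here.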

Additional observations from a re-analysis of the deposited data

How the results depend on the processing

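No call in WT was reversed in sign by any alternative. Of the 1095 genes, limma without a mean-variance trend called 363 (231 rose and 132 fell, with 342 of the 1095 kept), and a test against a 1.5-fold change 388 (236 and 152). Genes without an opposite-strand overlap, 5877 in number, gave 623 calls (351 and 272); fewer genes were tested. Leaving out each library gave 734 to 1427 calls, 400 to 801 rises and 308 to 626 falls. The other alternatives in WT (added reads, scaling, voom weights, a minimum of 10 mean reads, only the 6 WT libraries) gave 1007 to 1433 calls. Among 239 called genes that the naming rule or the text picked, 91 lost the call without at least 1 WT library, 132 without the trend, and 94 kept it under every alternative that tested them. In the KO-labelled libraries the 314 calls became 16 without the trend and 32 to 1076 with a library left out, and the interaction gave 0 to 7 calls with a library left out; the cause was not tested. With the replicate number as a block, 1086 genes were called in WT over the 12 libraries and 1264 within the 6 WT libraries, 336 in the KO-labelled libraries and 0 for the interaction. Same-numbered libraries of different groups had deviations correlated at -0.066 to 0.04, and differently numbered ones at -0.064 to 0.052. At a median of 11.33 reads per gene and library, counting error can hide a pairing, so whether the numbers pair libraries stays unknown. Depth limits the calls: few genes under 3.25 mean reads could pass.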

Other observations

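Reads were also assigned to micro-RNA precursor genes. Of 74 measured, 1 rose and 4 fell by limma, beside 6.72% and 4.96% of all genes. These are reads over a precursor in a messenger RNA library, and they do not measure the mature micro-RNA. Mir3074-2 (GRCm38, chromosome 8, 84208825 to 84208907) had 252, 233 and 136 reads in saline and 11, 21 and 19 reads in LPS and fell by 3.58 ± 0.49 log2 units (adjusted p = 1.61e-05). It lies opposite Mir24-2, which had 7, 10 and 12 reads in saline and 4, 0 and 0 reads in LPS and changed by -3.27 ± 1.04 log2 units (adjusted p = 0.0365). Mir290a, the first precursor of a cluster known from embryonic stem cells, had 44, 91 and 76 reads in saline and 16, 5 and 12 reads in LPS and changed by -2.71 ± 0.57 log2 units (adjusted p = 0.0016); it overlaps Mir290b on the other strand. Mir3473e had 28, 17 and 27 reads in saline and 0, 2 and 14 reads in LPS and changed by -3.20 ± 0.88 log2 units (adjusted p = 0.0142). Mir6381, opposite Gbp2, had 50, 48 and 120 reads in saline and 513, 256 and 299 reads in LPS and rose by 2.34 ± 0.31 log2 units (adjusted p = 7.08e-06), beside the rise of Gbp2 by 3.38 ± 0.42 log2 units. For each of these genes the groups did not overlap, and whether the reads belong to a longer transcript across the precursor was not tested. Mir24-2 lost its call without WT-LPS 2, WT-LPS 3, WT-Saline 1, WT-Saline 2 or WT-Saline 3 (adjusted p 0.0785 to 0.17) and Mir3473e without WT-LPS 1, WT-Saline 1 or WT-Saline 3 (adjusted p 0.0519 to 0.119). Mir24-2, Mir290a and Mir3473e were not called by limma without a mean-variance trend (adjusted p 0.0518 to 0.0731).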
